A study of Mus musculus with 12 samples.

Results

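The mitosis and spindle genes are 40 mouse genes whose products drive a cell from late G2 through chromosome segregation to cytokinesis. They were chosen by symbol, from a list of G2 and mitosis genes, and all 40 were found among the 24132 gene symbols of the deposited expression table. The table covers cultured fibroblasts from the tail tips of newborn mice, connective tissue cells, on a background crossed back to C57BL6. The cells were wild type for Hotair, heterozygous or knockout, that is with 0, 1 or 2 disrupted copies of this long noncoding RNA gene of the HoxC cluster, and 2 polyadenylated RNA libraries were sequenced for each genotype. The labels give no sex, no other allele and no treatment, and they do not say whether the 2 libraries of a genotype came from separate animals or cultures, so the p-values below rest on a spread between libraries that may be purely technical. The ChIP-seq samples of the series are not analysed here. In such bulk RNA, a change in the share of dividing cells and a change in RNA per cell cannot be told apart, and neither can an effect of genotype and a difference between the preparations sequenced.

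Entry into mitosis is driven by the kinase Cdk1 bound to a B-type or A-type cyclin, switched on by Cdc25 phosphatases and amplified by the Plk1 and Aurora kinases. Kinetochores, built on centromeric chromatin, attach chromosomes to spindle microtubules, and the spindle assembly checkpoint holds back the anaphase-promoting complex and its activator Cdc20 until all are attached. Most of these genes are transcribed in a wave in G2 and mitosis and are low in resting or early G1 cells, and their promoters are known for CCAAT boxes and for the cell cycle genes homology region (CHR), through which the DREAM complex, B-MYB and FOXM1 act, so that their messages are widely read as a proliferation signature.

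Levels are given in RPKM, the reads of a gene per kilobase of its exons and scaled to the library's total, so that they can be compared between genes. Depths recovered from the deposited values were 27.9M to 33.2M reads of 37 bases in the wild-type and heterozygous libraries and 48.1M and 46.0M for knockout, 1.64 times the wild-type depth. Hotair stood at 0.247 and 0.183 RPKM in wild type, 0.213 and 0.172 in heterozygous and 0 in both knockout libraries. These levels were 11.4 to 16.2 reads per library where it was detected. The wild-type mean was at least 15.0-fold higher than knockout and the heterozygous mean at least 13.4-fold higher, against a floor of 3 reads over the knockout group, which covers counting error only. Fibroblast markers were the most abundant cell type markers in all 6 libraries, led by Vim.

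Promoter windows from RefSeq (GRCm38.p6, 250 bases before to 50 after each start) were matched by symbol for 32 of the 40 genes. CCAAT, on either strand, stood in 25 of the 32 (78.1%), against 41.1% of the 27025 symbols with a window and 42.7% of the 7941 genes that were both tested and matched. A CHR core, TTTGAA or TTCGAA on either strand, stood in 26 (81.3%), against 21.7% and 15.5%. Both motifs stood in 23 (71.9%), against 8.61% and 6.37%, and 1 pair of matches overlapped. A match describes these letters and is not a measured site of binding. The 6 stretches here are the 250 bases before the start, 5′ to 3′ on the gene's own strand, with CCAAT and CHR matches of either strand in capitals. They show 4 of the genes that were higher in knockout, Top2a (chr11:99024190-99024439, minus strand), Mki67 (chr7:135716380-135716629, minus), Ccnb2 (chr9:70421555-70421804, minus) and Cdk1 (chr10:69352913-69353162, minus), and the 2 that were not, Bub3 (chr7:131560120-131560369, plus, the first of its RefSeq starts) and Ncapd2 (chr6:125191587-125191836, minus).
Top2a: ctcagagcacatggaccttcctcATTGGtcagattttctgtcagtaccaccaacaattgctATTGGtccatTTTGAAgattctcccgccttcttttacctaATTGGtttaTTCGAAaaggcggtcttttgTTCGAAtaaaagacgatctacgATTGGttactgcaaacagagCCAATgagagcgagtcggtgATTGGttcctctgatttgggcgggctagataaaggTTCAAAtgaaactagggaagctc
Mki67: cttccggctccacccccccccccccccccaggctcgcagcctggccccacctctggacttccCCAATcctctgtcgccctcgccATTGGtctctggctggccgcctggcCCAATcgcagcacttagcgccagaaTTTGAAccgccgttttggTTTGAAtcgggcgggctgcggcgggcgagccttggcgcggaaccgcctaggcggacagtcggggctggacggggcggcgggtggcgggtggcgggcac
Ccnb2: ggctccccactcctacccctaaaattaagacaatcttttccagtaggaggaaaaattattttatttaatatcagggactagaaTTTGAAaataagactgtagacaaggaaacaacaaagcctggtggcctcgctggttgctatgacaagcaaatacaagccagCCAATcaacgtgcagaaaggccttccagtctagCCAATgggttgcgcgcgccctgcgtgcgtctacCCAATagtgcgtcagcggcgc
Cdk1: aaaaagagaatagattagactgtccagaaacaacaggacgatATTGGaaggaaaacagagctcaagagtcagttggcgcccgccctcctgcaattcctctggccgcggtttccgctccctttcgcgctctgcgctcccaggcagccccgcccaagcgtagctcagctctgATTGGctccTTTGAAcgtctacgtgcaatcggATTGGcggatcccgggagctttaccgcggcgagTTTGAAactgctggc
Bub3: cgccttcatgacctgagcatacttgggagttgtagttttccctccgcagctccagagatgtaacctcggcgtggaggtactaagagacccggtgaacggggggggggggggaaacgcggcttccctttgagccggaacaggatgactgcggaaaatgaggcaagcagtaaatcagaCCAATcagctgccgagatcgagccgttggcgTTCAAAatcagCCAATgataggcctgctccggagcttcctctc
Ncapd2: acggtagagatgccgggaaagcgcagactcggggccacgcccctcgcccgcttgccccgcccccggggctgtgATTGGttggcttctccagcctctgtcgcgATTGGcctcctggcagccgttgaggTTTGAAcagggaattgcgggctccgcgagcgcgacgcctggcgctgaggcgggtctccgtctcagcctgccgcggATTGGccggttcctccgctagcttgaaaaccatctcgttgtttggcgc
Top2a holds 6 CCAAT and 4 CHR matches in this stretch, the most of the 6 shown. Bub3 holds 2 and 1 and Ncapd2 holds 3 and 1, so both motifs are also present before the 2 genes that did not rise. The 6 genes shown were picked among those with both motifs in this stretch and do not stand for the 32. Birc5, Mad2l1, Nuf2 and Nusap1, which were higher in knockout, hold neither motif in the whole window. The shares above also count matches in the 50 bases after the start.

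**Figure D1:**
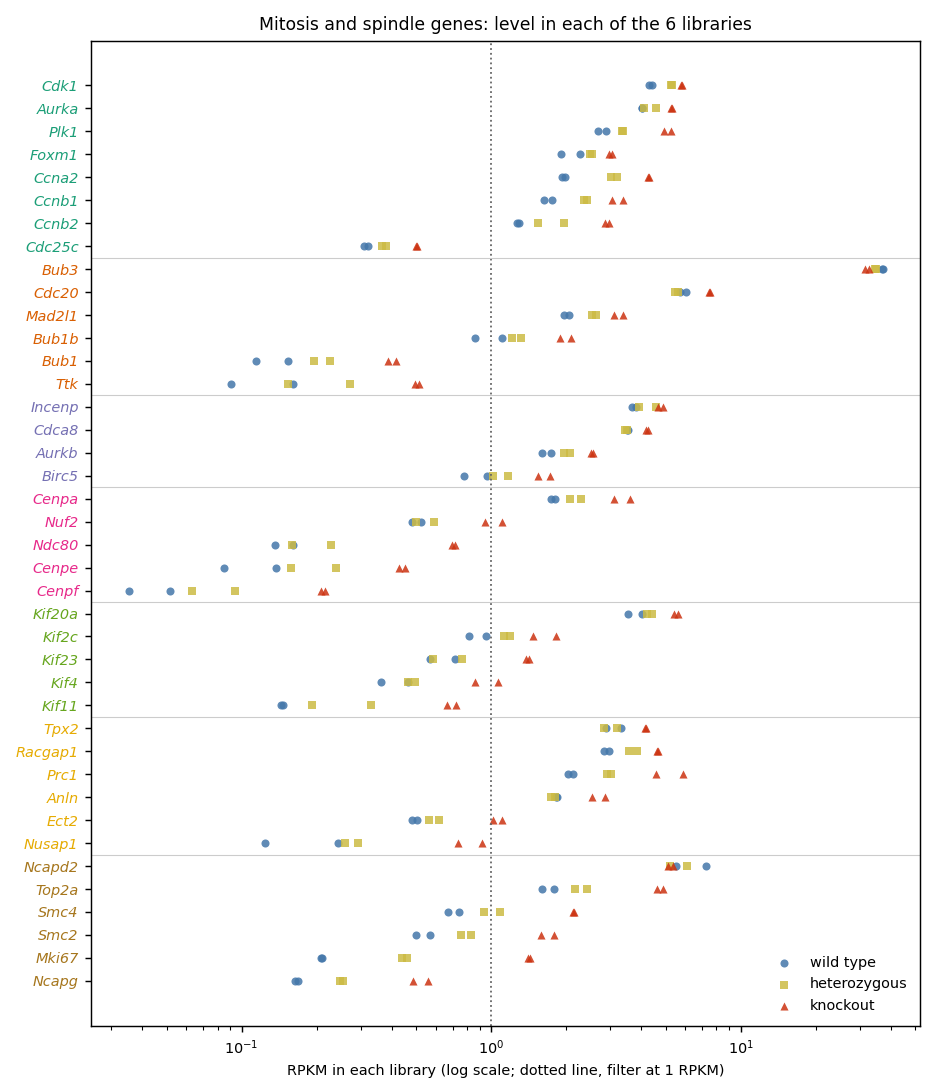
RPKM of the 40 mitosis and spindle genes in each of the 6 libraries, on a log axis, by role of the product; each point is 1 library, coloured by genotype. In 38 of the 40 genes both knockout points lie above both wild-type points, and Bub3 and Ncapd2 show the opposite order.

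As a group the mitosis and spindle genes were low in these cells and higher in knockout. Of the 40, 39 stayed under 10 RPKM in every library, and Bub3, a checkpoint adaptor, was the exception. Their summed level was 102 and 104 RPKM in wild type, 111 and 112 in heterozygous and 141 and 137 in knockout, with no overlap between the genotypes. Without Bub3, which made up the largest single share, the sums were 64.9 and 67.3, 76.0 and 77.1, and 109 and 106, and the knockout mean was 1.62 times the wild-type mean.

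Knockout against wild type asks which of these messages change when Hotair is disrupted on both copies. Both knockout libraries exceeded both wild-type libraries in 38 of the 40 genes, against 43.6% of the 18888 genes above 0, and they lay below in 2, against 25% of those genes. The median RPKM ratio over the 40 was 1.97, from 0.821 in Ncapd2 to 6.76 in Mki67, and 20 of the 40 were at 2 or more, against 17.9% of all genes above 0. The test (limma on log2(RPKM + 1), which understates the change of low genes) took the 10897 genes with at least 1 RPKM in at least 2 libraries. Among them were 29 of the 40, and 5 of these, Kif23, Ect2, Smc2, Smc4 and Mki67, passed only through the knockout libraries, where they are high. It called 27 higher, against 40.6% of the genes tested, and 1 lower, Bub3, against 26.6%. Of the 24 that passed without the knockout libraries, 22 were called higher. In the same test with no filter, which takes in all 40, 38 were called higher, against 28.7%, and 1 lower, against 15.6%. The median log2 difference over the 40 was 0.47, against 0.059 over all genes tested.

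The calls over all genes shift with the scaling of the libraries. Of all calls in knockout against wild type, 60.4% were higher with the values as deposited, 46.7% after quantile normalization and 47.2% after median scaling. Under these scalings 23 and 27 of the mitosis genes were called higher, against 29.9% and 31.9% of the genes tested. Under each of them 2 were called lower, against 3712 and 3891 of the 10897 genes tested. The 4 that quantile normalization left uncalled were Incenp, Cdca8, Ect2 and Tpx2.

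**Figure D2:**
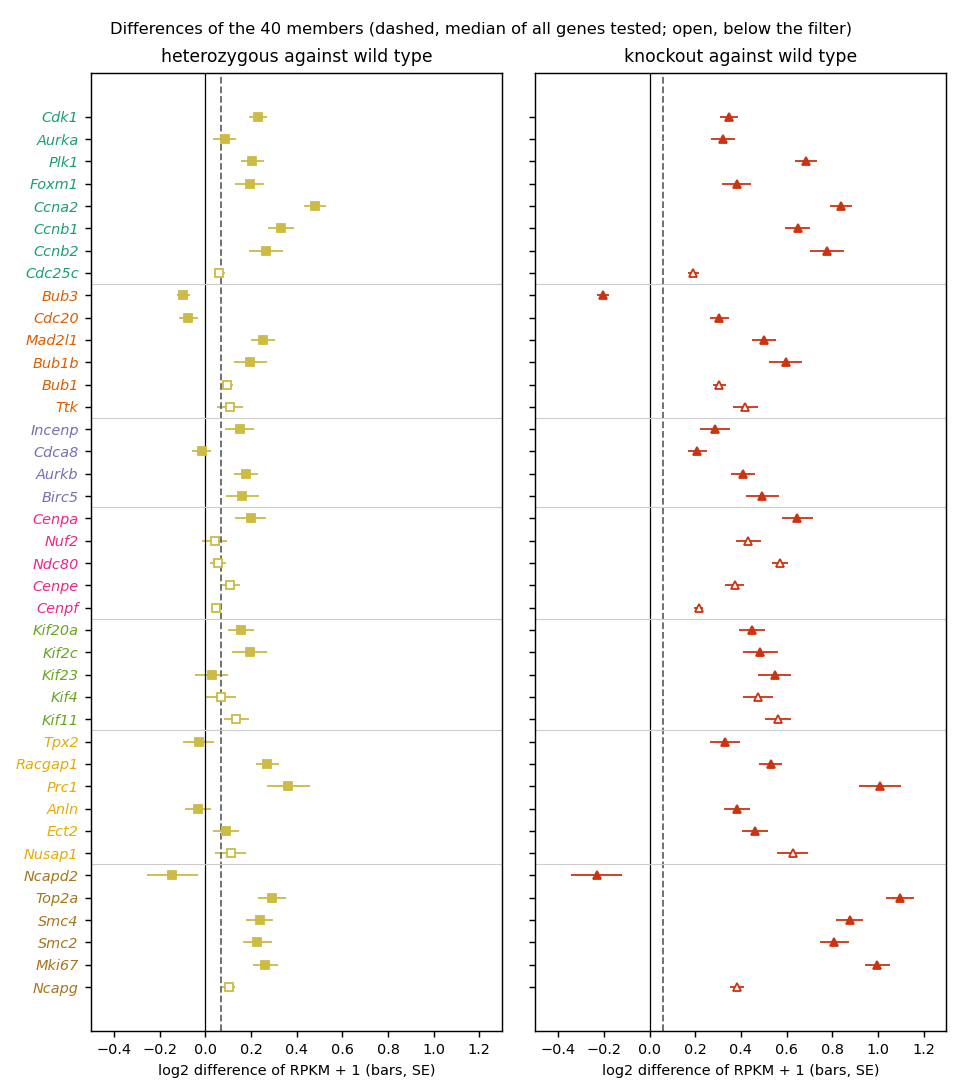
Log2 difference of each of the 40 genes, as log2(RPKM + 1) with its standard error, in knockout and heterozygous against wild type. The knockout differences run from -0.23 to 1.1 and the heterozygous ones from -0.14 to 0.48.

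Mitotic entry regulators rose in knockout, and all 7 that passed the filter were called higher, against 40.6% of the genes tested. Ccna2, the A-type cyclin of S phase and early mitosis, stood at 1.97 and 1.92 RPKM in wild type, 3.20 and 3.01 in heterozygous and 4.30 and 4.23 in knockout. The 3 genotypes did not overlap, and knockout exceeded wild type by a log2 difference of 0.84 ± 0.05 (SE, adjusted p = 5.65e-06). Ccnb2, a B-type cyclin, was at 1.27 and 1.29, 1.53 and 1.96, and 2.96 and 2.85 RPKM in the same order. Its largest step lay between heterozygous and knockout, and the knockout difference from wild type was 0.78 ± 0.08 (adjusted p = 8.12e-05). Plk1, the Polo-like kinase that promotes entry and spindle maturation, was at 2.69 and 2.88, 3.34 and 3.39, and 5.24 and 4.95 RPKM, again without overlap (0.69 ± 0.05, adjusted p = 1.77e-05). The other members of this group were Ccnb1, the main mitotic cyclin, Aurka, the centrosomal Aurora kinase, Foxm1, the transcription factor of the G2 programme, and Cdk1 itself. Their RPKM ratios of knockout to wild type ran from 1.31 in Aurka to 1.90 in Ccnb1, with Cdk1 at 1.33 and Foxm1 at 1.45. Cdc25c, an activating phosphatase of Cdk1, stayed under the filter, with 0.322 and 0.309 RPKM in wild type and 0.504 and 0.501 in knockout.

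In the spindle assembly checkpoint the members did not move one way. Bub1b, the checkpoint protein BUBR1, was at 0.860 and 1.1 RPKM in wild type, 1.22 and 1.32 in heterozygous and 2.09 and 1.89 in knockout, a log2 rise of 0.60 ± 0.07 (adjusted p = 0.000294). Mad2l1, which binds Cdc20 at unattached kinetochores, was at 1.96 and 2.05, 2.62 and 2.53, and 3.11 and 3.39 RPKM (0.50 ± 0.05, adjusted p = 0.000122). In both genes every knockout library exceeded every other library. Cdc20, the activator that the checkpoint restrains, was at 6.02 and 5.72, 5.59 and 5.45, and 7.53 and 7.44 RPKM, so that the heterozygous libraries lay lowest and the knockout highest (0.31 ± 0.04, adjusted p = 0.000472).
Bub3, the adaptor that brings BUB1 and BUBR1 to kinetochores and that also serves outside mitosis, went the other way. It was at 37.1 and 37 RPKM in wild type, 34.7 and 34.4 in heterozygous and 32.6 and 31.5 in knockout, and it fell by 0.20 ± 0.03 on the log2 scale (adjusted p = 0.000461). Because Bub3 outweighs the others, the summed level of the checkpoint genes barely differed, with a knockout to wild-type ratio of 0.989. The kinases Bub1 and Ttk were under the filter, with RPKM ratios of 2.99 and 4.02, and their knockout libraries lay above all others, while the wild-type and heterozygous libraries of Ttk overlapped.

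All 4 genes of the chromosomal passenger complex, which corrects faulty attachments and acts in cytokinesis, were called higher in knockout, against 40.6% of the genes tested. After quantile normalization 2 of the 4 were called higher, against 29.9%. Birc5, its survivin subunit, was at 0.781 and 0.963 RPKM in wild type, 1.16 and 1.02 in heterozygous and 1.54 and 1.73 in knockout (log2 difference 0.49 ± 0.07, adjusted p = 0.000684). Aurkb, the kinase of the complex, was at 1.74 and 1.60, 1.96 and 2.07, and 2.52 and 2.56 RPKM (0.41 ± 0.05, adjusted p = 0.000333). Neither gene's knockout libraries overlapped the others. The scaffold Incenp was at 3.66 and 3.79, 4.58 and 3.93, and 4.66 and 4.87 RPKM (0.29 ± 0.06, adjusted p = 0.00566), and its first heterozygous library lay close to knockout. Cdca8, borealin, had the smallest RPKM ratio of the 4, 1.20.

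Centromere and kinetochore genes had the lowest summed level of the role groups, 2.64 and 2.50 RPKM in wild type, 3.35 and 3.03 in heterozygous and 5.56 and 5.89 in knockout. Cenpa, the centromeric histone H3 variant, was the one member above 1 RPKM in at least 2 libraries, with 1.80 and 1.74 RPKM in wild type, 2.29 and 2.06 in heterozygous and 3.10 and 3.59 in knockout (log2 difference 0.65 ± 0.07, adjusted p = 0.000125). The other members were below it. Cenpe, a kinetochore motor, rested on 31.9 and 18.6 reads in wild type and 161.7 and 162.6 in knockout, Cenpf on 16.9 and 11.0 against 115.2 and 106.6, and Ndc80, of the microtubule-binding complex, on 8.9 and 9.9 against 76.5 and 70.8. Their RPKM ratios, which allow for depth, were 3.95, 4.88 and 4.76, and that of Nuf2, the partner of Ndc80, was 2.05. In the test without a filter all 4 were called higher, with adjusted p of 0.00165, 0.000854, 0.000267 and 0.0026 in the same order.

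Among the mitotic kinesins the knockout libraries were the highest of the 6 for all 5 genes. Kif23, of the central spindle, was at 0.570 and 0.714 RPKM in wild type, 0.585 and 0.763 in heterozygous and 1.41 and 1.38 in knockout (log2 difference 0.55 ± 0.07, adjusted p = 0.00044). Wild type and heterozygous overlapped, and knockout stood apart from both, but Kif23 passed the filter only through the knockout libraries, where it is high. Kif2c, which depolymerises microtubules at centromeres, was at 0.955 and 0.814, 1.19 and 1.12, and 1.81 and 1.47 RPKM (0.48 ± 0.08, adjusted p = 0.000997). Kif20a, which carries passenger proteins to the midzone, was at 3.54 and 4.02, 4.23 and 4.40, and 5.62 and 5.42 RPKM (0.45 ± 0.06, adjusted p = 0.00035). The order of the genotypes was the same in these 2 genes. Kif11, the motor that separates spindle poles, and Kif4, a chromokinesin, were under the filter, with RPKM ratios of 4.75 and 2.34.

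Spindle assembly and cytokinesis genes rose too. All 5 that passed the filter were called higher, against 40.6% of the genes tested, and Ect2 passed only through the knockout libraries, where it is high. After quantile normalization 3 of the 5 were called higher, against 29.9%. Prc1, which bundles midzone microtubules, was at 2.12 and 2.03 RPKM in wild type, 3.02 and 2.90 in heterozygous and 5.90 and 4.58 in knockout. Its knockout replicates lay further apart than those of the other 39 genes, by 4.86 SD of counting noise, and both still exceeded the rest (1.01 ± 0.09, adjusted p = 5.9e-05). Racgap1, of the centralspindlin complex, was at 2.97 and 2.83, 3.57 and 3.85, and 4.61 and 4.65 RPKM (0.53 ± 0.05, adjusted p = 6.2e-05). Ect2, which positions the cleavage furrow, was at 0.482 and 0.503, 0.616 and 0.565, and 1.1 and 1.01 RPKM (0.46 ± 0.06, adjusted p = 0.000278). All 3 genotypes were separate in both genes. Anln, anillin, and Tpx2, which activates Aurora A on the spindle, rose with RPKM ratios of 1.47 and 1.34, and Nusap1, under the filter, had a ratio of 4.51.

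Chromosome structure genes and Mki67 had the largest median difference of the role groups on the log2(RPKM + 1) scale, 0.84. That scale understates the change of low genes. By summed RPKM the centromere and kinetochore genes had the largest ratio of knockout to wild type, 2.23, against 1.63 for this group. Top2a, the topoisomerase that untangles sister chromatids, was at 1.60 and 1.78 RPKM in wild type, 2.42 and 2.17 in heterozygous and 4.90 and 4.61 in knockout (log2 difference 1.1 ± 0.06, adjusted p = 5.54e-06). Mki67, the Ki-67 proliferation marker that coats mitotic chromosomes, was at 0.210 and 0.208, 0.439 and 0.462, and 1.43 and 1.40 RPKM (0.997 ± 0.05, adjusted p = 4.91e-06). In both genes the heterozygous libraries lay between the others, closer to wild type. Smc4, a core condensin subunit, was at 0.741 and 0.672, 0.937 and 1.09, and 2.14 and 2.13 RPKM (0.88 ± 0.06, adjusted p = 1.38e-05), and its partner Smc2 had an RPKM ratio of 3.17. Mki67, Smc4 and Smc2 passed the filter only through the knockout libraries, where they are high. Ncapg, a subunit of condensin I, was under the filter at a ratio of 3.14.
Ncapd2, another condensin I subunit, did not pass the test. It was at 5.51 and 7.25 RPKM in wild type, 5.22 and 6.07 in heterozygous and 5.38 and 5.10 in knockout, a log2 difference of -0.23 ± 0.11 (adjusted p = 0.1). Its wild-type replicates differed by 5.59 SD of counting noise, the most of the 40 genes in that genotype, and without the first wild-type library it was called lower. Ncapd2 hosts the small RNA gene Scarna10.

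Other table genes overlap 11 of the 40 in RefSeq, among them Exosc9 beside Ccna2, Cstf1 beside Aurka, Rccd1 beside Prc1 and Mir15b and Mir16-2 within Smc4. The sources used here do not say whether counting used the strand that the libraries mark, so reads of such pairs cannot be told apart.

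**Figure D3:**
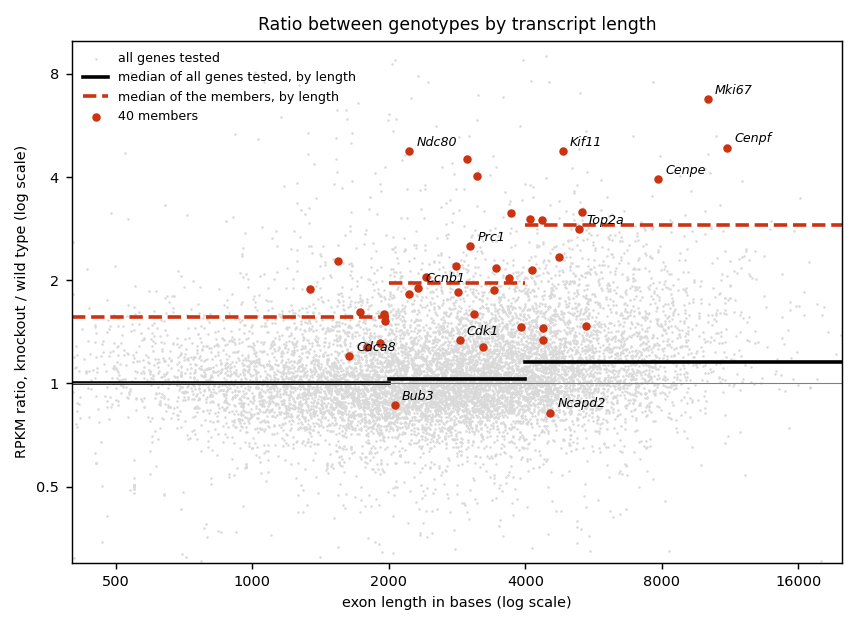
RPKM ratio of knockout to wild type against exon length, both axes logarithmic, for the 40 genes (coloured points) and the other genes tested (grey); 201 genes tested lie outside the axes. Members with exons of 4000 bases or more have a median ratio of 2.90, against 1.16 for all genes tested of that length.

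The RPKM ratio differed with gene length and with level. The median RPKM ratio of knockout to wild type was 1.56 for the 8 members with exons under 2000 bases, 1.97 for the 18 from 2000 to 4000 and 2.90 for the 14 of 4000 or more. Over all genes tested the medians in these classes were 1.002, 1.03 and 1.16, and 1.13, 1.18 and 1.33 among those with a mean under 5 RPKM. Across the 40 genes, which share the 6 libraries and are not independent replicates, the Spearman correlation between exon length and ratio was 0.41 and Pearson's r on log scales 0.50, against 0.20 and 0.12 over 10895 genes tested. Between wild-type level and ratio, which share the wild-type value, they were -0.87 and -0.87 over the 40, the lowest genes having the highest ratios. After the length trend of all genes was removed, the same 27 of the 29 were called higher, against 30.2% of the genes tested. Bub3 and Ncapd2 were called lower, against 4008 of the 10897 genes tested. With a trend in length and level removed together, 22 were called higher, against 29.2% of the genes tested, and Foxm1, Cdca8, Incenp, Tpx2 and Anln were not. Both alternatives were chosen after the data were seen.

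Heterozygous against wild type asks whether the disruption of 1 copy moves the same genes. The Hotair mean in heterozygous was 0.896 of the wild-type mean, with overlapping libraries and on few reads. The median RPKM ratio over the 40 was 1.27, and both heterozygous libraries lay above both wild-type libraries in 29 genes, against 39.5% of all genes above 0, and below in 4, against 20.4%. The test called 15 of the 29 higher, against 35.5% of the genes tested, 1 lower, Bub3, against 17.1%, and did not call 13. Of the 29, Kif23, Ect2, Smc2, Smc4 and Mki67 passed the filter only through the knockout libraries, which are not compared here. With only the 2 groups compared in the fit, 24 passed and 10 of them were called higher, against 32.4% of the genes tested. With no filter the test called 10 of the 40 higher, against 20%, and Bub3 lower, against 9.59%. Ccna2 had the largest difference, 0.48 ± 0.05 (adjusted p = 0.000189), followed by Prc1 (0.36 ± 0.09, adjusted p = 0.0138) and Ccnb1 (0.33 ± 0.06, adjusted p = 0.00235). None of the 3 kinesins that passed was called, and Anln, Cdca8, Cdc20 and Tpx2 had values just below wild type (-0.034, -0.017, -0.074 and -0.030, none called). The count rests on the scaling. Of the 29, 4 were called higher after quantile normalization, 9 after median scaling and 8 after the length trend was removed, against 22%, 21.8% and 22.5% of the genes tested, so that after quantile normalization the share was below that of all genes. The share of all calls that were higher was 67.5% with the values as deposited, 51.1% after quantile normalization and 45.5% after median scaling.

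Knockout against heterozygous, which shares its knockout libraries with the first comparison and its heterozygous libraries with the second, called 26 of the 29 higher, against 26.4% of the genes tested, and Bub3 lower, against 25.4%. The median RPKM ratio was 1.53, and the libraries did not overlap in 38 genes that were higher in knockout, against 34.7% of all genes above 0, and in 1 that was lower, against 28.2%. With no filter 36 of the 40 were called higher, against 17.5%, and 1 lower, against 13.8%. Top2a (log2 difference 0.81 ± 0.06, adjusted p = 6.71e-05), Mki67 (0.73, adjusted p = 6.08e-05) and Prc1 (0.65, adjusted p = 0.00107) led. Of the 26 called with the filter, Kif23, Ect2, Smc2, Smc4 and Mki67 passed only through the knockout libraries, where they are high. After quantile normalization 23 of the 29 were called higher, against 23.6% of the genes tested, and Bub3 was not called. In 29 of the 40 genes wild type, heterozygous and knockout followed each other upward with no overlap of libraries, as in 16.7% of all genes above 0.

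Macrophage and osteoclast markers also moved with the knockout. The summed level of 14 macrophage and leukocyte markers was 10.4 and 9.10 RPKM in wild type, 8.47 and 7.65 in heterozygous and 55.8 and 56.1 in knockout, led by Lyz2. Of the 7 that passed the filter 6 were called higher, but 3 of these, Csf1r, Tyrobp and Fcer1g, passed only through the knockout libraries, where they are high. These and the marker counts below stand against 40.6% of all genes tested called higher in knockout against wild type and 26.6% called lower. Ptprc, the pan-leukocyte CD45, was at 0.0683 RPKM or less in every library, and Cd52 was at 0 in all wild-type and heterozygous libraries. The 8 osteoclast markers summed to 22 and 22.2, 14.4 and 16.8, and 51.5 and 51.2 RPKM, with 3 called higher, of which Acp5 and Atp6v0d2 passed only through knockout, and 1, Ctsk, lower. The 8 Schwann and neural crest markers went from 27.9 and 28.0 RPKM in wild type to 35.4 and 34.2 in heterozygous and 16.0 and 16.7 in knockout, where 4 of the 5 that passed fell. Of the 10 fibroblast markers 3 were called higher in knockout, among them S100a4 (log2 difference 0.65). The number called lower was 6, among them Thy1 (-0.998) and Vim (-0.31). The part of these cell types in the mitotic differences was not tested. Keratinocyte markers were low, with sums of 1.15 and 1.15 RPKM in wild type, 2.3 and 2.38 in heterozygous and 3.05 and 2.64 in knockout. The order of these sums came largely from Sfn, at 0.352 and 0.220, 1.24 and 1.43, and 1.95 and 1.64 RPKM. Sfn, the one that passed the filter, was called higher in heterozygous and in knockout. Over the 10 keratinocyte markers, with no filter, the median log2 difference of knockout from wild type was 0.0064. Endothelial markers summed to between 0.394 and 0.649, with Emcn at 0. Muscle markers summed to 32.5 and 31.5 RPKM in wild type, 18.7 and 18.6 in heterozygous and 18.7 and 17.1 in knockout. Most of each sum was Actc1. Of the 2 that passed the filter, Actc1 was called lower in knockout (log2 difference -1.02) and Des higher (0.91). Myod1 and Myf5 were at 0 in every library. Cartilage and bone markers summed to 6.65 and 6.99 RPKM in wild type and to 12.2 and 12.7 in knockout.

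**Figure D4:**
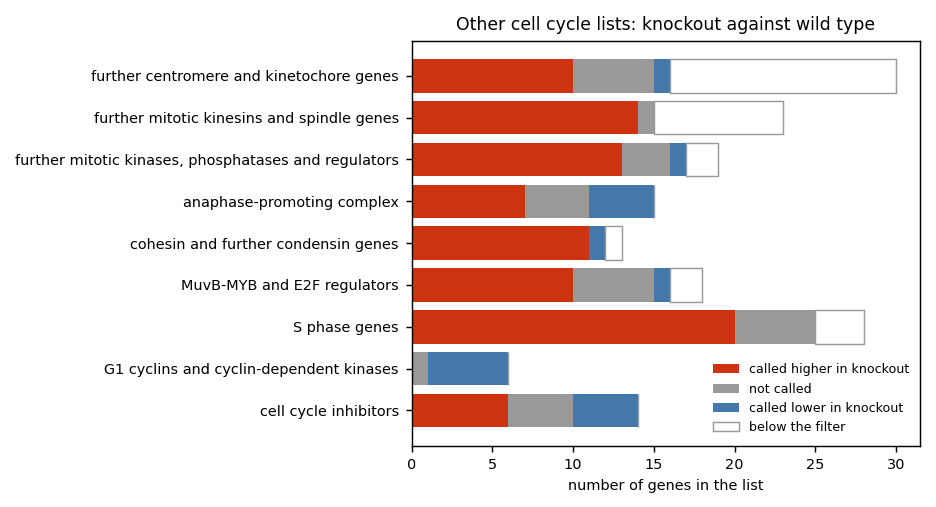
For each list of cell cycle genes, the number called higher, lower or not called in knockout against wild type, among those that passed the filter. G1 cyclins and kinases are the list with no member called higher.

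Further cell cycle genes outside the 40 were read from lists, whose counts in knockout against wild type stand against 40.6% of all genes tested called higher and 26.6% called lower. Several lists hold genes that passed the filter only through the knockout libraries, where they are high: 4 further kinetochore genes, 5 further kinesin and spindle genes, 5 further kinases and regulators, 4 MuvB, MYB and E2F genes and 1 S phase gene. Without them 6 of 12, 9 of 10, 8 of 12, 6 of 12 and 19 of 24 were called higher. Of 16 further centromere and kinetochore genes that passed the filter, 10 were called higher and 1, Zwint, lower (log2 difference -0.27), with Ska2 at 0.57. Further kinesins and spindle genes gave 14 higher and 0 lower of 15, with the microtubule polymerase Ckap5 at 0.69. Further mitotic kinases and regulators gave 13 higher and 1 lower of 17, with Cdca3 at 0.70.
Cohesin and further condensin genes gave 11 higher and 1 lower of 12, with the cohesin subunit Stag2 at 1.07 and its loader Nipbl at 0.93, and a list median of 0.73. Genes of S phase gave 20 higher and 0 lower of 25, among them Mcm6 of the replicative helicase (0.77) and the sliding clamp Pcna, at 27.3 and 24.8 RPKM in wild type and 41.3 and 41.4 in knockout. Of 15 genes of the anaphase-promoting complex 7 were higher, among them Cdc27 (0.85), and 4 lower, among them Anapc7 (-0.40), which is near the shares over all genes. Regulators of the MuvB, MYB and E2F families gave 10 higher and 1 lower of 16, and the one that fell was the repressor E2f6 (-0.45).
The G1 cyclins and their kinases went the other way, with 5 of 6 lower, among them Ccnd1 (-0.38), Ccnd2 (-0.32) and Cdk6 (-0.49). Of 14 cell cycle inhibitor genes 6 rose and 4 fell, again near the shares over all genes. Ccng1, a p53 target, rose from 54.4 and 53.8 RPKM in wild type through 65.2 and 64.2 in heterozygous to 83.9 and 81.9 in knockout (log2 difference 0.61). Cdkn2a, the locus of p16 and p19ARF, was at 83.7 and 83.7 RPKM in wild type, 56.3 and 59.1 in heterozygous and 51.2 and 51.4 in knockout (log2 difference -0.70), and Cdkn1a, which encodes p21, was at 315 and 316 RPKM in wild type and 283 and 288 in heterozygous, with a knockout mean of 252 (-0.33). For Cdkn2a and Cdkn1a the wild-type libraries were highest and knockout lowest. Cdkn2c, the p18 inhibitor, singled out after its values were seen, rose (1.05). After quantile normalization 6 of the further kinetochore genes, 7 of the further mitotic kinases and 4 of the MuvB, MYB and E2F genes were called higher, of 16, 17 and 16 and against 29.9% of all genes tested. The share of the MuvB, MYB and E2F genes was then below that of all genes. The numbers lower were 3, 2 and 2 in these lists and 3 of the 6 G1 genes, against 3712 of the 10897 genes tested. The median of each of the lists kept its sign.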

How the data were processed

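The 6 RNA libraries were prepared with dUTP, so that they keep the strand (per the labels' protocols). TopHat and the mm9 build are named in the submitters' processing notes. The deposited table holds 1 value per symbol and library. Its header names no unit, and the values, as deposited by the authors, were taken as RPKM, already scaled to exon length and library total. The basis was a search for whole exon lengths. Every deposited value above 0 gave a whole number of aligned bases for 1 whole exon length per gene (18888 of 18888 genes). The tolerance was at most 0.002 bases. Because the length was searched for, genes above 0 in few libraries can fit by chance and do not bear on the unit. The read length of 37 bases does not enter this fit. Annotation and filters used by the authors: not given in the sources used here.

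A model of 3 group means was fitted to log2(RPKM + 1) with limma 3.58.1 in R 4.3.3 (two-sided, with an intensity trend and 3 residual degrees of freedom). Genes needed 1 RPKM in at least 2 libraries, and p-values were adjusted by Benjamini-Hochberg over all genes tested, with a threshold of 0.05. The 40 genes and all lists were chosen with earlier results of these data known. Full statistics are given for up to 3 genes of each role with the largest difference, and for those that were not called or went against the majority. From each further list up to 3 genes with the smallest p were named, besides single exceptions chosen after their values were seen. Alternatives were other pseudocounts, filters, scalings and fits, a replicate block, and each library left out. Replicates differed by slightly more than counting noise for the typical gene (robust variance 1.16 to 1.22 of it), and by more over all genes (mean squared z of 1.58, 1.84 and 2.36).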

Additional observations from a re-analysis of the deposited data

How the results depend on the processing

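Triplets of values refer to knockout and heterozygous, each against wild type, and then to knockout against heterozygous. A filter at 5 RPKM was passed by 6 of the 40 genes. Of these 4, 1 and 4 were called higher, against 33.8%, 33.6% and 23.7% of the genes tested. The number called lower in knockout against wild type was 2 after quantile normalization, median scaling, and removal of the length trend or of the length and level trend. Over all 10897 genes tested the numbers lower were 3712, 3891, 4008 and 3771 in the same order. In heterozygous against wild type, 4, 9, 8 and 5 were called higher under these 4 settings, against 22%, 21.8%, 22.5% and 22.1% of the genes tested. After quantile normalization, and with the length and level trend removed, the share of the 29 was below that of all genes. The number lower in this comparison was 2 after quantile normalization, median scaling and removal of the length and level trend, and 0 without the intensity trend. Over all 10897 genes tested it was 2292, 2839, 2409 and 1762 in the same order. In knockout against heterozygous none was called lower after quantile normalization or with the length and level trend removed, against 2860 and 2823 of the 10897 genes tested. The median log2 difference over the 40 genes was 0.90, 0.29 and 0.59 with a pseudocount of 0.1, 0.18, 0.050 and 0.13 with 5, and 0.28, 0.060 and 0.27 after quantile normalization. It was 0.39, 0.068 and 0.34 after median scaling, 0.38, 0.073 and 0.32 with the length trend removed and 0.34, 0.068 and 0.29 with the length and level trend removed. The summed RPKM ratio to wild type was 1.22 and 1.253 in knockout, and 1.005 and 1.003 in heterozygous, after quantile normalization and median scaling, against 1.35 and 1.08.

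Leaving out each library gave 23 to 27, 10 to 12 and 17 to 26 called higher, 1 to 2, 0 to 1 and 0 to 1 called lower, and medians of 0.42 to 0.49, 0.12 to 0.15 and 0.34 to 0.37. A lone library left in a group is assumed to vary like the others. Heterozygous values against wild type that changed sign were those of Aurka (-0.030), Kif23 (-0.16) and Ect2 (-0.11) after quantile normalization, of Kif23 after median scaling (-0.048), and of Kif23 and Ect2 with the length trend removed (-0.049 and -0.0028) or the length and level trend removed (-0.094 and -0.045). Leaving out 1 library moved Kif23 from -0.049 to 0.10, Tpx2 from -0.10 to 0.045 and Ncapd2 from -0.32 to 0.027, and Ncapd2 in knockout against heterozygous from -0.18 to 0.0051. The cause was not tested. Replicate numbers did not pair the libraries (correlations of deviations -0.088, -0.062 and 0.065). With the replicate number as a block, 27, 15 and 25 were called higher, against 40.3%, 34.4% and 25.7% of the genes tested. The numbers lower were 1, 1 and 1, against 2861, 1811 and 2649 of the 10897 genes tested, and the medians of the 40 were 0.47, 0.14 and 0.35. Depth limits the 11 genes under the filter, which rested on 7.9 to 61.6 reads in the wild-type libraries.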
